A study of Mus musculus with 6 samples.

Results

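The genes of polyamine synthesis and breakdown were examined in gastrocnemius muscle at 13 weeks (young group, 3 mice) and at 26 months (aged group, 3 mice). All mice were male C57BL/6J mice on a standard diet, with no treatment in either group, and each array held RNA of 1 mouse labelled with Cy3. The 10 genes listed were Odc1, Amd1, Amd2, Smox, Sat1, Srm, Sms, Azin1, Oaz1 and Paox, and a probe belonged to a gene when its RefSeq accession was a transcript of that gene. This gave 19 of the 55681 probes on the array and 9 of the 10 genes, among 20911 genes tested, since no probe carried the accession of Amd1. The genes tested include transcripts without a RefSeq gene name, each counted under the name the array gives it. All 19 probes were well above background on all 6 arrays. A signal is given as log2 of the intensity minus the 75th percentile of the array, so that 0 is the 75th percentile, and a log2 difference is aged minus young.

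Polyamines are small, positively charged molecules that bind nucleic acids and are needed for cell growth and protein synthesis. Ornithine decarboxylase (Odc1) makes putrescine from ornithine. S-adenosylmethionine decarboxylase (Amd1, Amd2) provides the aminopropyl groups that spermidine synthase (Srm) and spermine synthase (Sms) add to putrescine and then to spermidine. Breakdown runs through spermine oxidase (Smox), which turns spermine back into spermidine, and through acetylation by Sat1 followed by oxidation by Paox. Antizyme (Oaz1) binds ornithine decarboxylase and directs it to the proteasome, and the antizyme inhibitor (Azin1) releases it. The array data address whether the mRNA of these steps differed with age in muscle.

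The name of the S-adenosylmethionine decarboxylase probes needs a qualification, and the start regions of both genes are shown beside it. The 3 probes carry NM_007444, which RefSeq assigns to Amd2 and for which it lists Amd1 as an older name. Amd2 is a close copy of Amd1, and transcripts of near-identical genes can bind the same probe, so the signal could not be assigned to either gene. The probe sequences were not at hand. Whether these probes bind both transcripts was therefore not examined, and the windows cannot show it. The windows below are from RefSeq (GRCm38.p6, minus strand), chr10:40302139-40302438 for Amd1 and chr10:35711842-35712141 for Amd2. Each holds 250 bases before the transcript start and 50 from it, and the capitals mark the stretch that both windows share.
Amd1: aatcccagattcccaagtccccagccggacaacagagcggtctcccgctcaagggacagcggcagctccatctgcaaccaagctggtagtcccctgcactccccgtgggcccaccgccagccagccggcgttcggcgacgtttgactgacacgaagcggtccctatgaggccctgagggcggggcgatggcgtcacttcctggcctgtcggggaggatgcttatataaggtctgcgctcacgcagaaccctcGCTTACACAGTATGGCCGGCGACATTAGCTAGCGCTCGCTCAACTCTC
Amd2: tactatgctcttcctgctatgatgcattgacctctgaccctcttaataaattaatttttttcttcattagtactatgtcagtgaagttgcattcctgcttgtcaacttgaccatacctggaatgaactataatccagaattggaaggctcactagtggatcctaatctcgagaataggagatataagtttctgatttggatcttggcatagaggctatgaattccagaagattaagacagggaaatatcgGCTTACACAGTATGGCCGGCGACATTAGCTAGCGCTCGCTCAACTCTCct
In a local alignment of these windows, 48 of 48 aligned bases were identical (100%), from base 3 of the Amd1 transcript and base 1 of the Amd2 transcript. Before the starts, the best local alignment of the 250 bases was 7 bases long. Both genes thus share the beginning of the transcribed sequence in these windows and no longer stretch upstream of it.

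S-adenosylmethionine decarboxylase was the step with the clearest difference between young and aged mice. In the order of mice 1 to 3 of each group, which is kept throughout, probe A_55_P2121252 was 6.46, 6.16 and 6.52 in young mice and 3.69, 4.46 and 4.13 in aged mice. All 3 aged mice were below all 3 young mice, by a margin wider than the range within either group. The mRNA level by this probe fell to 0.205-fold of young mice (log2 fold change -2.29, standard error 0.24, 95% interval -2.86 to -1.72, adjusted p = 0.0256 in limma over the 28016 probes tested). It was the only member probe past an adjusted p of 0.05, 1 of 19, where 0.268% of all probes tested were past it and 0.0678% were past it and lower in aged mice. Leaving out a mouse ended the call in most cases. The adjusted p was 0.0252 without aged mouse 1 and between 0.0770 and 0.119 without any other mouse, while the log2 fold change stayed between -2.47 and -2.09. With no filter on dim probes the call was also lost (adjusted p = 0.0943), at the same log2 fold change.

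The other 2 probes of NM_007444 gave smaller differences. Probe A_55_P2014511 was 6.11, 6.27 and 6.46 in young mice and 3.83, 5.31 and 4.89 in aged mice. The groups did not overlap, and the log2 fold change was -1.60 (95% interval -2.49 to -0.71, adjusted p = 0.171 in limma). Probe A_55_P2014506, the brightest of the 3 and therefore the one that represented the gene in the fit of 1 probe per gene, was 8.63, 8.65 and 8.92 in young mice and 6.98, 8.30 and 7.74 in aged mice. Aged mouse 1 was the lowest with all 3 probes and aged mouse 2 the highest of the aged mice. For this brightest probe the log2 fold change was -1.06 (0.480-fold, 95% interval -1.85 to -0.27, adjusted p = 0.245 in limma over the 20911 genes tested), so the gene was not called when it was represented by this probe. With the mean of its 3 probes, the log2 fold change was -1.65 (adjusted p = 0.114).

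The 3 probes were compared with each other within each array, a comparison added after the values had been seen. The difference between A_55_P2121252 and A_55_P2014506 within an array averaged -2.35 ± 0.17 in the young group and -3.58 ± 0.27 in the aged group (SD, n = 3 each), a shift of -1.23 in which the scaling of the array cancels. The groups did not overlap. The exact two-sided permutation p was 0.1, the smallest that 3 mice against 3 can give, and 0.133 after Benjamini-Hochberg adjustment over 4 such comparisons. For A_55_P2014511 against A_55_P2014506 the shift was -0.54, again with no overlap (exact permutation p = 0.1, adjusted 0.133). Since 3 mice against 3 cannot give a lower p, this test cannot decide whether these probes shifted unequally.

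**Figure D1:**
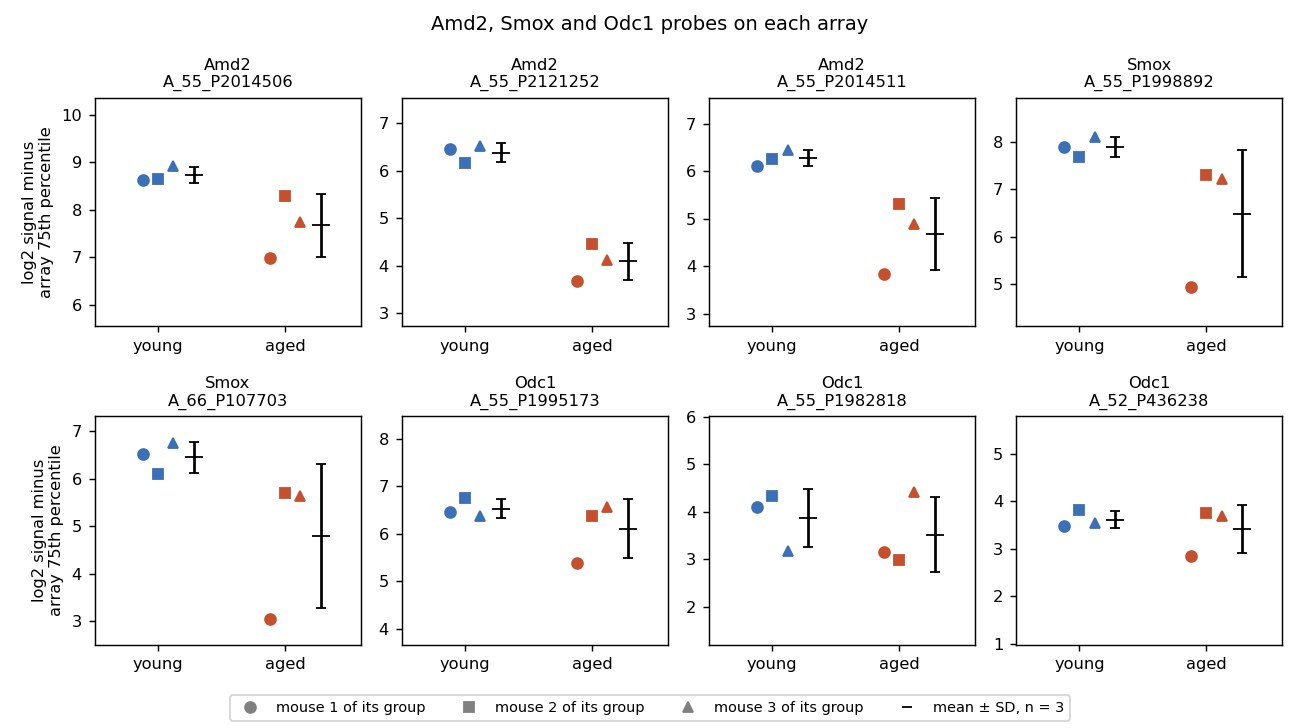
Log2 signal minus the 75th percentile of the array for the 3 Amd2, 2 Smox and 3 Odc1 probes, with a point per mouse and the mean ± SD (n = 3) beside them; every panel spans the same number of log2 units. The Amd2 and Smox panels have no overlap between young and aged mice, aged mouse 1 (circle) is lowest in each of them, and the Odc1 panels overlap.

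Spermine oxidase had large mean differences that were carried to a great extent by aged mouse 1. Smox probe A_55_P1998892 was 7.88, 7.69 and 8.10 in young mice and 4.94, 7.30 and 7.22 in aged mice. Probe A_66_P107703, of another Smox transcript accession, was 6.51, 6.10 and 6.75 in young mice and 3.04, 5.71 and 5.63 in aged mice. With both probes all aged mice were below all young mice, and aged mouse 1 stood apart from aged mice 2 and 3 by more than those were apart from young mice. The log2 fold change was -1.40 for A_55_P1998892 (0.379-fold, 95% interval -2.86 to 0.06, adjusted p = 0.363 in limma, 1 probe per gene) and -1.66 for A_66_P107703 (95% interval -3.32 to 0.01, adjusted p = 0.366 in limma, every probe). Neither passed the threshold. Without aged mouse 1 the log2 fold changes were -0.63 and -0.78, with adjusted p of 0.182 and 0.198 from limma. Smox was thus lower in 3 of 3 aged mice, but the size of the difference ranged from -0.59 in aged mouse 2 to -2.94 in aged mouse 1 with the brighter probe.

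The Smox and Odc1 windows are shown because these enzymes stand at opposite ends of the pathway, synthesis and breakdown. Both are from RefSeq (GRCm38.p6, plus strand, 250 bases before the start and 50 from it), chr2:131491612-131491911 for Smox and chr12:17544623-17544922 for Odc1. Capitals mark each GC box, searched as GGGCGG on both strands.
Smox: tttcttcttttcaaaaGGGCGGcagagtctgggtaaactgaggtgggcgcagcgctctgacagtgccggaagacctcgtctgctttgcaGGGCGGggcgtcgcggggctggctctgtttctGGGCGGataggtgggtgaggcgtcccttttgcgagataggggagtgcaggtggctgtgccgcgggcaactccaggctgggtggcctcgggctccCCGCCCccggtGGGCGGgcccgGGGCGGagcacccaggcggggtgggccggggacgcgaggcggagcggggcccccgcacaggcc
Odc1: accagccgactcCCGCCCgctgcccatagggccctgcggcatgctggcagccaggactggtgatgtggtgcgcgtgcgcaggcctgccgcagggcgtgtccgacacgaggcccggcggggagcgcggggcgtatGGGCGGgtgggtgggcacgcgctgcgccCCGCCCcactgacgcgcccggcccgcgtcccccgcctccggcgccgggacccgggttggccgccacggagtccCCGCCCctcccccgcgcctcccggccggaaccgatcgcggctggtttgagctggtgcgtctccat
The Smox window had 6 matches to the GC box and the Odc1 window 4, where 35.7% of 32851 mouse windows of this length held at least 1. Of the 8 members with a window in the RefSeq table, 6 had a GC box, the Amd1 window with 1 match among them and the Amd2 window with none. Counts of members are per gene and the percentages per window, and Sms and Paox had 2 windows each, so they are not like for like. The E-box CACGTG (7.15% of all windows) was found for 1 member, Sms, the CCAAT box (37.4%) for 3, Amd2, Sms and Oaz1, and the TATA box TATAAA (13.6%) for 1, Oaz1. The Oaz1 match to TATAAA ran from -3 to 2, across the transcript start. Only exact letters were searched, so variants of a motif were not counted. The motifs were searched on both strands and were not masked for overlaps with each other.

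Ornithine decarboxylase showed no difference beyond the spread between mice. The brightest Odc1 probe, A_55_P1995173, was 6.45, 6.75 and 6.36 in young mice and 5.39, 6.37 and 6.55 in aged mice. Aged mice 2 and 3 lay within the range of young mice, and aged mouse 1 lay below it. The log2 fold change was -0.42 (95% interval -1.18 to 0.35, adjusted p = 0.578 in limma). The second probe, A_52_P436238, was also lowest in aged mouse 1, at 3.48, 3.82 and 3.54 in young mice and 2.84, 3.74 and 3.68 in aged mice, and its log2 fold change was -0.19 (95% interval -0.85 to 0.47). The third, A_55_P1982818, ordered the mice in another way. It was 4.11, 4.33 and 3.17 in young mice and 3.15, 2.98 and 4.42 in aged mice, so that aged mouse 3 was the highest of all 6 and aged mouse 2 the lowest (log2 fold change -0.35).

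The change of Odc1 was set against that of the decarboxylase and the oxidase within each array, which removes the scaling of the array. Odc1 minus Amd2 differed between aged and young mice by 0.64 (exact two-sided permutation p = 0.2, n = 3 in each group), and the groups overlapped. With the mean of all probes of each gene it differed by 1.33 (exact permutation p = 0.1). Odc1 minus Smox differed by 0.98 with no overlap between groups (exact permutation p = 0.1), and by 1.21 with the mean of all probes (exact permutation p = 0.2). Srm minus Sms differed by 0.39 with overlap (exact permutation p = 0.5). After adjustment over these 3 comparisons the exact permutation p were 0.3, 0.3 and 0.5. Since 3 mice against 3 cannot give an unadjusted p below 0.1, this test cannot decide whether these genes shifted unequally.

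The aminopropyl transferases were close to the level of young mice. Spermidine synthase (Srm, A_55_P2002376) was 1.84, 2.03 and 1.41 in young mice and 2.10, 1.66 and 2.30 in aged mice, with a log2 fold change of 0.26 (95% interval -0.32 to 0.84, adjusted p = 0.645 in limma). Its second probe gave 0.30. Spermine synthase (Sms, A_55_P2115995) was 5.75, 5.52 and 5.96 in young mice and 5.11, 5.86 and 5.88 in aged mice, with a log2 fold change of -0.12 (95% interval -0.74 to 0.49, adjusted p = 0.848). The other 2 Sms probes gave -0.17 and -0.18. All 3 Sms probes were lowest in aged mouse 1, and without this mouse all 3 were slightly higher in aged mice (0.13, 0.096 and 0.098). For both enzymes the groups overlapped, and the intervals leave room for differences of about 0.8 on the log2 scale upward for Srm and 0.7 downward for Sms.

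Acetylation and the oxidation that follows it also showed no difference past the threshold. Sat1, the acetyltransferase that marks spermidine and spermine for export or oxidation, was 1.89, 2.01 and 1.30 in young mice and 1.68, 1.29 and 1.65 in aged mice (log2 fold change -0.19, 95% interval -0.76 to 0.38, adjusted p = 0.740 in limma). Paox, the peroxisomal oxidase of acetylated polyamines, was 2.59, 2.60 and 2.45 in young mice and 3.41, 2.37 and 2.12 in aged mice. Aged mouse 1 was above all young mice and the other two aged mice below all of them. Its log2 fold change of 0.085 (95% interval -0.71 to 0.88, adjusted p = 0.920) was therefore a mean of opposite deviations, and it was -0.30 without aged mouse 1.

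The regulators of ornithine decarboxylase differed in how much mice varied. Antizyme (Oaz1, 1 probe) was 9.01, 8.99 and 9.14 in young mice and 8.80, 9.04 and 8.83 in aged mice, the narrowest spread of the members. Its log2 fold change was -0.16 (95% interval -0.53 to 0.21, adjusted p = 0.660 in limma) and became 0.0025 after quantile normalization and 0.092 with normexp background correction. Antizyme inhibitor (Azin1, A_51_P234544) was 2.06, 1.92 and 2.80 in young mice and 1.46, 2.89 and 3.83 in aged mice, with a log2 fold change of 0.46 (95% interval -0.92 to 1.85, adjusted p = 0.740). The other 2 Azin1 probes gave 0.87 and 0.58 with the same order of aged mice, lowest in mouse 1 and highest in mouse 3. Without aged mouse 3 the log2 fold change of A_51_P234544 was -0.086, so its direction rested on that mouse.

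**Figure D2:**
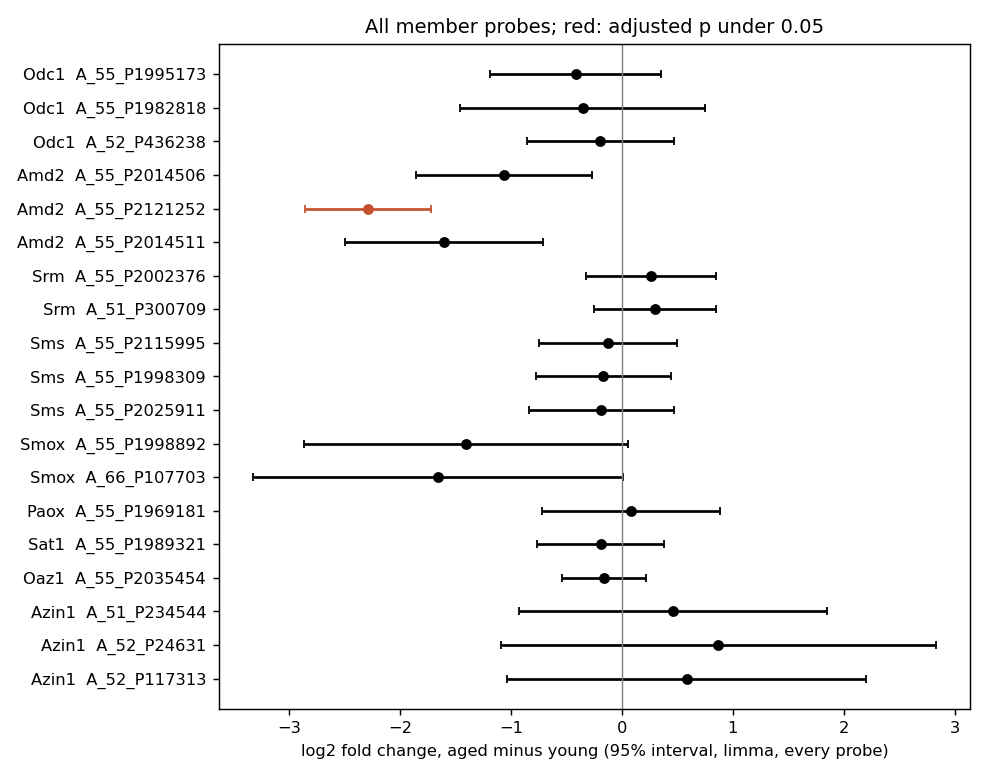
Log2 fold change (aged minus young) of each of the 19 probes with its 95% interval from limma, 3 mice in each group; red marks an adjusted p under 0.05. Probe A_55_P2121252 of Amd2 (-2.29) is the only red point, the intervals of all 3 Amd2 probes lie below 0, and all other intervals include 0.

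Counted over the 9 genes with 1 probe each, 6 were lower and 3 higher in aged mice, and none passed the threshold in limma (0 of 9). Of the 20911 genes tested, 0.253% passed, 0.196% as higher and 0.0574% as lower in aged mice. At an unadjusted p under 0.05 there was 1 of the 9 genes, Amd2, and 14.4% of all genes in limma. Over all probes, 13 of 19 were lower and 6 higher, and 3 of 19, all of Amd2, had an unadjusted p under 0.05 (13.7% of all probes tested). The groups did not overlap for 5 of the 19 probes, those of Amd2 and Smox, all lower in aged mice, against 21.3% of all probes tested (13.3% lower). For 2 of the 9 genes they did not overlap, against 21.8% of all genes (13.9% lower). Counted in both directions, the members' shares without overlap and at an unadjusted p under 0.05 in limma were near those of the array. Counted as lower only, their shares without overlap were above those of the array, but these 5 probes came from only 2 genes. The median log2 fold change of the 9 genes was -0.16. It was -0.06 over all genes tested and -0.14 over the 1509 genes with a mean signal above 6.

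Much of the variation among the members was between the arrays of aged mice. The median deviation of the 9 genes from the mean of young mice was -0.63 for aged mouse 1, with 7 of 9 genes below that mean. It was -0.15 for aged mouse 2 (7 of 9 below) and -0.080 for aged mouse 3 (5 of 9 below). Over all genes tested the median deviation was between -0.076 and -0.0094 in the same mice. Among all arrays, that of aged mouse 1 had the highest 75th percentile (311), share of probes well above background (53.8%) and negative control signal (61.3). On the other arrays the negative control signal was 51.9 to 55.1. The part of this in the deviations of aged mouse 1 was not tested. The arrays lay on 1 slide, with aged mice 2 and 3 in slide row 2. Differences between aged mouse 1 and aged mice 2 and 3 therefore cannot be told apart from slide row. Aged mouse 1 was the only aged mouse in the same slide row as young mice. Within that row, which compares aged mouse 1 alone with 3 young mice, the log2 fold changes were -1.75, -2.69 and -2.45 for Amd2 probes A_55_P2014506, A_55_P2121252 and A_55_P2014511 and -2.94 and -3.41 for Smox probes A_55_P1998892 and A_66_P107703. These are values of 1 aged mouse, with no spread among aged mice, and are given as a description. A fit with the row as a block returns the same values from the same mouse.

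**Figure D3:**
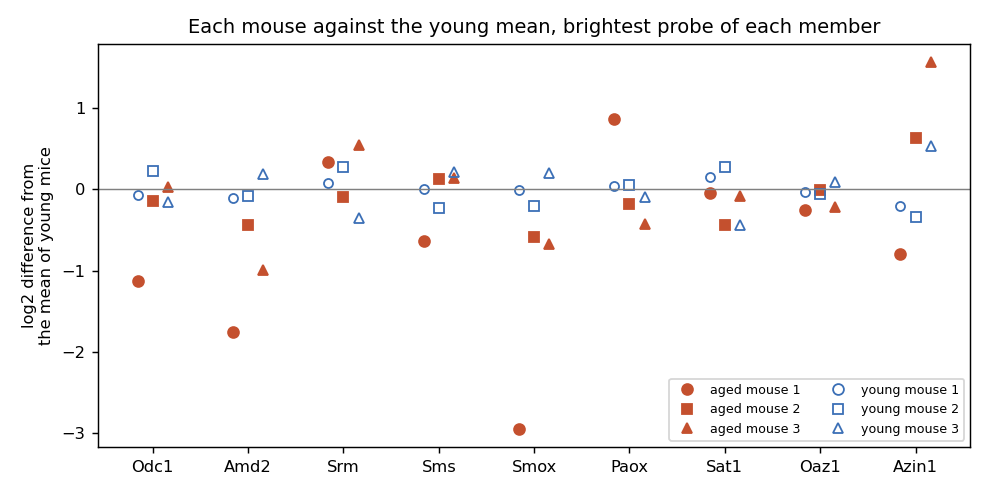
Log2 difference of each mouse from the mean of the 3 young mice for the brightest probe of each of the 9 genes; filled symbols are aged mice and open symbols young mice. Aged mouse 1 is the lowest point for Odc1, Amd2, Sms, Smox, Oaz1 and Azin1 and the highest for Paox, and Azin1 is highest in aged mouse 3.

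In whole muscle, fewer cells of a type and less RNA per cell cannot be told apart, and genes that mark cell types were read beside the members. All 6 muscle fibre genes (Acta1, Ckm, Mb, Tnnt3, Myh4 and Pvalb) were detected, as the tissue label implies, and their summed level was 5086 to 6223 times the 75th percentile in young mice and 4229 to 5503 in aged mice. All 6 were lower in aged mice, none past the threshold, and their median deviation from young mice was -0.43 for aged mouse 1, against -0.04 and -0.10 for aged mice 2 and 3. The list holds no myosin gene of slow fibres, so fewer fibres and a change of fibre type cannot be told apart. Summed levels did not overlap for fibroblast genes (368 to 423 in young and 165 to 327 in aged mice, 5 of 5 lower), erythrocyte genes (634 to 921 and 289 to 459, 5 of 5 lower), macrophage genes (17.7 to 19.4 and 19.5 to 24.4, 5 of 6 higher) and endothelial genes (13.8 to 16.1 and 10.2 to 12.1, 2 of 5 lower). They overlapped for neutrophil, T and B lymphocyte, adipocyte, Schwann cell and satellite cell genes, with 2 of 5, 2 of 2, 3 of 4, 4 of 5 and 2 of 3 genes lower, and 1 marker gene, on the Schwann cell list, passed the threshold. Among the endothelial genes 3 of 5 were higher (median log2 fold change 0.06), although their summed level was lower. For the Schwann cell list the median log2 fold change was -0.94, and the median deviation was -0.93, -0.94 and -1.15 for aged mice 1 to 3. Cd163 and Ms4a1 were above background on no array. The part of these shifts in the values of the polyamine genes was not tested.

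Genes of neighbouring steps were taken from 7 lists with 56 genes, of which 43 could be tested. None passed the threshold in limma (0 of 43, against 0.253% of all genes tested). An unadjusted p under 0.05 in limma was found for 7 of 43, against 14.4% of all genes tested. Of the 43 genes, 19 were higher and 24 lower, and their median log2 fold change was -0.07. For 6 genes the groups did not overlap and the unadjusted p was under 0.05, which is 6 of 43 where 13% of all genes tested met both conditions. These 6 genes are described because the naming rule selected them.

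Among transporters, Atp13a3, a P-type ATPase of polyamine uptake, was -0.52, -0.20 and -0.22 in young mice and 0.69, 0.56 and 0.81 in aged mice. The values within each group were close together, and the log2 fold change of 1.0 (95% interval 0.60 to 1.4, adjusted p = 0.0958 in limma) had the lowest p of all 43 genes. Atp13a5, of the same ATPase family, was -0.75, -0.77 and -0.21 in young mice and -1.59, -1.85 and -1.18 in aged mice, with a log2 fold change of -0.96 (adjusted p = 0.186). The whole list of acetylation, transport and efflux had 5 of 9 genes higher, 4 lower and a median of 0.04.

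The list named for arginine and ornithine supply had 4 of 8 genes higher and 4 lower (median 0.06), and a place on it does not state a gene's product. Asl, which releases arginine from argininosuccinate, was 0.40, 0.10 and -0.41 in young mice and 1.45, 1.06 and 0.65 in aged mice (log2 fold change 1.03, adjusted p = 0.212 in limma). Agmat, annotated as agmatinase, was -1.11, -0.90 and -0.52 in young mice and -0.22, -0.03 and 0.06 in aged mice (log2 fold change 0.78, adjusted p = 0.186). In the salvage of methylthioadenosine, the by-product of aminopropyl transfer, 3 of 5 genes were higher and 2 lower. Adi1, a dioxygenase of this pathway, was 2.81, 3.11 and 1.96 in young mice and 4.04, 3.24 and 4.30 in aged mice (log2 fold change 1.23, adjusted p = 0.246), but its other probe gave 0.26.

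The list around S-adenosylmethionine, the substrate of the decarboxylase, holds its synthesis (Mat2a, Mat2b), its use by Gnmt, and genes of homocysteine and methionine turnover (Ahcy and its relatives, Mtr, Mtrr, Bhmt). Of its 9 genes tested, 7 were lower, with a median of -0.18 and no gene at an unadjusted p under 0.05. The synthesis genes Mat2a and Mat2b were at -0.04 and -0.35. On the list of amine and aldehyde breakdown, 3 of 6 genes were higher and 3 lower, and Aoc3, a copper amine oxidase of vessels and fat, was 0.13, -0.24 and 0.22 in young mice and -0.43, -0.37 and -0.55 in aged mice (log2 fold change -0.49, adjusted p = 0.301 in limma). The 4 genes of hypusine synthesis, the modification of eIF5A that uses spermidine, had log2 fold changes between -0.23 and 0.07. The further antizyme and antizyme inhibitor genes tested, Oaz2 and Azin2, were at 0.02 and -0.42.

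**Figure D4:**
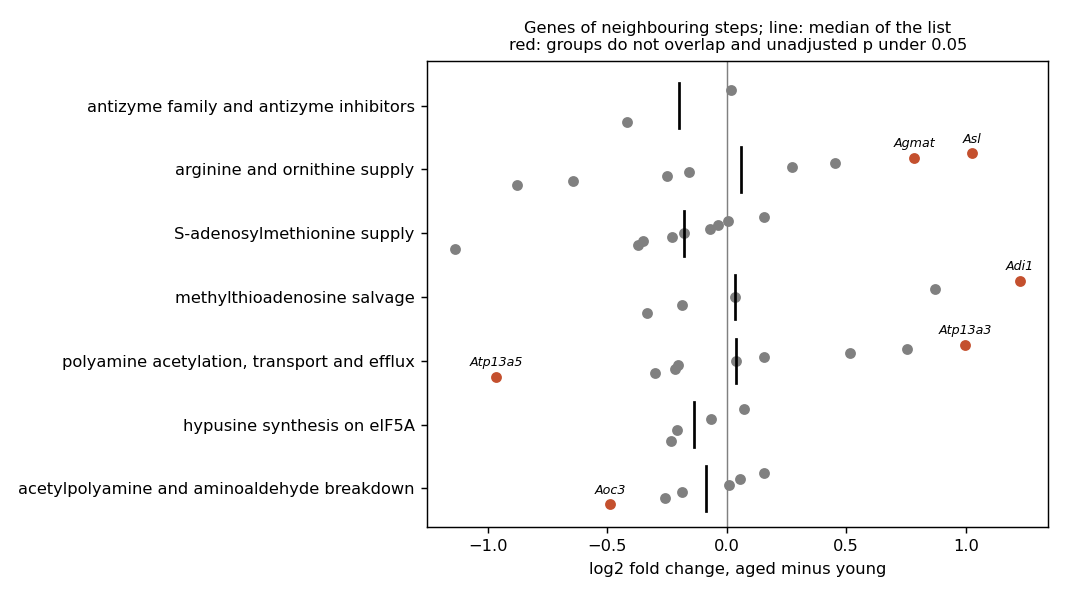
Log2 fold change (aged minus young, 1 probe per gene) of the 43 genes of neighbouring steps, a point per gene and a line at the median of each list. Red points are the 6 genes whose groups did not overlap at an unadjusted p under 0.05, from -0.96 for Atp13a5 to 1.23 for Adi1, and points lie on both sides of 0 in every list.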

How the data were processed

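The authors deposited 1 Agilent Feature Extraction file per mouse (version 11.0.1.1 per the file headers, 9.5 per the labels), with the processed signal, an intensity from which the software had removed background and spatial trend, with no scaling across arrays. The series matrix values were identical to it. For the collection of the array data the methods refer to earlier work, which was not used here. Of 62976 spots, 59305 were not controls. Flagged spots (161 to 212 per array) were left out, log2 signals were averaged per probe, and the 75th percentile of the array (210 to 311) was subtracted. Probes were named through RefSeq accessions (GRCm38.p6, 28331 of 55681 probes). The other 27350 probes kept the array's own name, which was counted as a gene. A probe was tested when well above background on at least 3 arrays, and a gene was represented by its brightest such probe. Between 48.7% and 53.8% of probes were above background on an array, no spot was saturated, and the number of arrays limits the precision.

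The age groups were compared by lmFit and eBayes of limma 3.58.1 under R 4.3.3 (Benjamini-Hochberg adjustment over all genes or all probes, threshold 0.05), in 1 fit with 1 probe per gene and another with every probe. The fit was tested on simulated data. Differences between members were tested with exact two-sided permutation. Where Amd1 had been planned in such a difference, the probe of NM_007444 was used. Start regions were aligned with Biopython 1.88 (match 2, mismatch -3, gap -5 and -2). Named genes are all members with every probe and, on the 7 neighbouring lists (antizymes, arginine and ornithine supply, S-adenosylmethionine and methionine turnover, methylthioadenosine salvage, acetylation and transport, hypusine synthesis, amine breakdown), those without overlap at an unadjusted p under 0.05. Members, lists and marker genes were chosen with earlier results of these data known. Alternatives were normexp on the median spot signal, other scalings and filters, probe averaging, flagged spots kept, a mean-variance trend, slide row and replicate number as blocks, the series matrix, and leaving out each mouse. Slide and scan could not be blocks, since there was 1 of each.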

Additional observations from a re-analysis of the deposited data

How the results depend on the processing

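With limma, the count of 0 members called with 1 probe per gene held in all settings except the slide row as a block, where it was 1 (Smox). The count of 1 member probe became 0 with no filter on dim probes, in the first slide row only and with the replicate block, 3 with the slide row as a block, and 0 to 1 when 1 mouse was left out. Without the filter more probes enter the adjustment, and the unadjusted p of Amd2 probe A_55_P2121252 in limma was also higher (7.87e-05 against 3.38e-05). The cause of the changes in this count was not tested. The count of 0 neighbouring genes held in every setting run. The median of the 9 members moved from -0.16 to -0.63 with the slide row as a block or the first row only. Both row settings estimate age from aged mouse 1 alone and assume that it varies like the other mice, so their calls are no test of age. Odc1 minus Amd2 and Odc1 minus Smox were 0.66 and 0.97 with normexp (exact permutation p = 0.1 and 0.2). All 3 Amd2 and both Smox probes were lower in aged mice in every setting run.

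The direction reversed for Oaz1, Paox, Azin1, Sms and an Odc1 probe. Oaz1 was 0.092 with normexp and 0.0025 after quantile normalization, and Paox was -0.062 with median scaling, a scaling that moved the median of all genes from -0.06 to -0.21. With the slide row as a block or the first row only, Azin1 was -0.80 (A_51_P234544), -0.87 (A_52_P24631) and -0.80 (A_52_P117313). With 1 mouse left out, Paox ranged from -0.30 to 0.34, Sms from -0.25 to 0.13, its probes A_55_P1998309 from -0.31 to 0.096 and A_55_P2025911 from -0.39 to 0.098, Odc1 probe A_52_P436238 from -0.35 to 0.098, Azin1 from -0.086 to 1.1 and its probe A_52_P117313 from -0.013 to 1.28.

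The number of genes called on the whole array was 53. It was 8 with no filter, 35 with probes above background on all 6 arrays, 5 with the replicate block, 0 in the first slide row (2303 genes at an unadjusted p under 0.05 in limma), and 1 (without aged mouse 3) to 201 (without aged mouse 1) with a mouse left out. The labels name no pairing of mice by replicate number. The deviations of mice with the same number correlated at -0.063, -0.27 and 0.028, and those of mice with different numbers at -0.21 to 0.35. With 3 mice in each group these correlations cannot settle whether mice were handled in pairs. The replicate block lost the call of Amd2 probe A_55_P2121252 (adjusted p = 0.113) and changed no other call of a member.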
